A study of Mus musculus with 6 samples.

Results

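The Wnt pathway genes described here are ligands, receptors, antagonists or attenuators, cytoplasmic transducers and nuclear factors of the pathway that are represented on an Illumina mouse bead array. They were chosen by symbol. A probe was taken where its annotated symbol begins with Wnt or Fzd followed by a digit, or is among 24 named genes (Shisa2, Lrp5, Lrp6, Dkk1, Dkk2, Dkk3, Sfrp1, Sfrp2, Wif1, Axin1, Axin2, Apc, Ctnnb1, Gsk3b, Dvl1, Dvl2, Dvl3, Tcf7, Tcf7l1, Tcf7l2, Lef1, Rnf43, Znrf3 and Nkd1). The rule found 104 probes for 53 of the 19057 annotated symbols. They comprised 19 Wnt genes, 12 receptor genes, 10 antagonists or attenuators, 8 cytoplasmic transducers and 3 nuclear factors, besides Fzd10os, a transcript from the strand opposite Fzd10 that the rule takes by its name. No probe in the annotation used here carried the symbol Tcf7.

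RNA came from a murine cancer culture expressing the rat her-2/neu gene, an oncogene of the EGF receptor family. Untreated cells (3 arrays) were compared with cells given withaferin A, a steroidal lactone from the plant Withania somnifera, at 8 µM for 6 h (3 arrays). Both groups grew in medium with 20% serum, the labels name no vehicle for the untreated cells, and replicates were made at passages 2, 3 and 4, and p-values therefore cover only the spread of these arrays. The comparison asks which pathway transcripts these cells contain and which of them differ after the compound.

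In canonical Wnt signalling a secreted Wnt protein binds a Frizzled receptor together with the coreceptor LRP5 or LRP6. Dishevelled then inactivates a complex of AXIN, APC and GSK3B that otherwise marks beta-catenin (Ctnnb1) for destruction, and beta-catenin moves to TCF/LEF factors on target genes. Axin2 is a widely used readout of that branch. Other branches run from Frizzled receptors to cell polarity and calcium without beta-catenin. In the mammary gland the pathway is known for Wnt1, found as an oncogene activated by mouse mammary tumour virus.

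Levels are given as log2 intensity after background correction and quantile normalization. A probe was called detected where its intensity lay above that of the array's negative controls at a detection p under 0.05, and the dimmest detected probe lay at 4.84 to 5.02 across the 6 arrays. Raw intensity over all probes had a median of 77.1 to 81.9 per array, and 18275 to 20104 of 45281 probes were detected. At the tested probes the raw median was 191.8 to 202 on withaferin A arrays and 218.5 to 235.9 on untreated arrays, a gap that quantile normalization removes. Of 7 epithelial markers, 5 (Cdh1, Cldn3, Cldn4, Krt8 and Krt18) were detected on all 6 arrays and Epcam on 0. Their summed level was 13.83 to 14.06 in untreated and 13.45 to 13.88 in withaferin A arrays. No epithelial marker passed, though at Krt18 all treated arrays lay below all untreated ones (1.62-fold lower, limma adjusted p = 0.0674). Of 7 basal and mesenchymal markers, Fn1, Krt14, Pdgfra and Vim were detected on all 6 arrays and Krt5 and Col1a1 on 0, with sums of 14.19 to 14.28 and 13.64 to 14.15. Within that list Krt14 rose 7.55-fold (4.11-fold where no background was subtracted and 4.10-fold in the deposited value table) and Pdgfra fell (2.14-fold lower), and their part in the Wnt pathway results was not tested. Leaving out untreated array 2 or 3 or treated array 1 or 2, or dropping the filter, ended the Pdgfra call (limma adjusted p up to 0.135). None of the 4 leukocyte markers with a probe was detected on any array, and neither were Pecam1, Cdh5 and Tek, 3 of the 4 endothelial markers. Kdr, the other endothelial marker, was detected on some arrays but not on all, as were the epithelial Krt19 and the mesenchymal Col1a2. The leukocyte sum lay at 6.47 to 6.53 in untreated and 6.51 to 6.54 in withaferin A arrays, and the endothelial sum at 6.56 to 6.72 and 6.69 to 6.94. An undetected marker adds only background to such a sum, and the leukocyte sum is background throughout. The fat marker Fabp4 was detected on 0 arrays and Adipoq on some but not all, and the fat sum was 5.49 to 5.54 and 5.49 to 5.76. The mouse Erbb2 probe was detected on all 6 arrays. All its treated arrays lay above all untreated ones, but it did not pass (1.36-fold higher, limma adjusted p = 0.128).

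The cells contained transcripts for a small set of ligands and for most parts of the receiving machinery. Of the 19 Wnt genes, Wnt7b, Wnt10a and Wnt10b were detected on all 6 arrays by at least 1 probe, Wnt5b on 2 and Wnt1 and Wnt6 on 1, and the other 13 on 0. Receptors were detected more widely, with Fzd2, Fzd3, Fzd5, Fzd6, Fzd7, Lrp5 and Lrp6 on all 6 arrays, Fzd4 on 4 and Fzd1 on 1, and Fzd8, Fzd9 and Fzd10 on 0. Among cytoplasmic transducers Apc, Axin1, Ctnnb1, Dvl1 and Gsk3b were detected on all 6 arrays, Dvl2 on 1, and Dvl3 and Axin2 on 0. Of the antagonists and attenuators, Shisa2 and Sfrp1 were detected on all 6 arrays, Wif1 on 4 and Nkd1 on 3, while Dkk1, Dkk2, Dkk3, Sfrp2, Rnf43 and Znrf3 were detected on 0. The nuclear factors Tcf7l1 and Tcf7l2 were detected on all 6 arrays and Lef1 on 3. A gene that is not detected may still be transcribed at a level these probes do not separate from background.

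By probe, 31 of the 104 were detected on all 6 arrays (29.8%) and 57 on none (54.8%), against 39.6% and 47.6% of all probes with a symbol. Untreated arrays 1 to 3 detected 38, 39 and 44 of these probes, and withaferin A arrays 1 to 3 detected 35, 36 and 36. Some genes had both detected and undetected probes, among them Tcf7l2, detected by 3 of its 6 probes on at least 1 array.

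**Figure D1:**
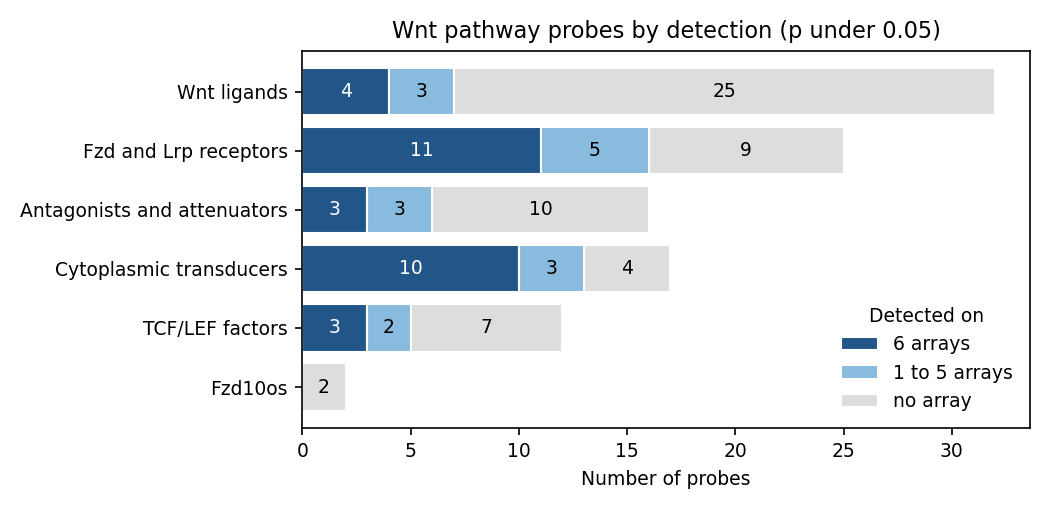
Number of probes (horizontal axis) for each role in the pathway (vertical axis), split by whether the probe was detected on all 6 arrays, on 1 to 5 or on none. Of 32 Wnt ligand probes 25 were detected on no array, against 9 of 25 receptor probes and 4 of 17 transducer probes.

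Probes detected on at least 3 of the 6 arrays were tested, which left 39 of the 104 probes and 23 of the 53 genes. A gene passed this filter more easily where either group held a high level, so the 23 do not stand for all members. The groups were compared with limma at a Benjamini-Hochberg adjusted p of 0.05, taken over all 19077 probes tested. Changes are withaferin A minus untreated on the log2 scale, and the brightest tested probe stands for its gene. In bulk RNA a lower level from fewer cells of a kind and from less RNA per cell cannot be told apart.

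Of the 23 tested genes, Fzd3 rose, Shisa2, Fzd5, Fzd6 and Wnt10a fell, and 18 did not pass. That is 21.7% of these genes, beside a background of 6.83% of 9756 genes called in either direction, 2.81% higher and 4.02% lower. The members were chosen with earlier results of these data known, so such shares are description only and were not tested. By probe, 1 was higher and 5 lower of 39, beside 2.55% of all 19077 probes higher, 3.34% lower and 5.90% in all. The median change was -0.11 over the 23 genes and 0.0054 over all genes tested. The groups did not overlap in 4 genes with higher and 6 genes with lower levels after withaferin A, beside a background of 14.9% and 15.8%, or 30.7% in either direction. At an unadjusted p under 0.05 there were 9 of the 23 genes, beside 26.0% of all genes. Without withaferin A array 1 the number of genes called fell from 5 to 1, Shisa2, and without untreated array 3 to 3. With no filter on dim probes, Shisa2 was again the 1 gene called among the 23. Without normalization between arrays the median change of all tested probes was -0.22, and 9.33% of all calls were higher against 43.3%. In that setting 1 pathway gene was called higher and 6 lower. Calls over all probes moved as well, from 1125 to 382 without withaferin A array 1 and 494 without untreated array 3. They numbered 579 with no filter and 2959 without normalization between arrays.

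**Figure D2:**
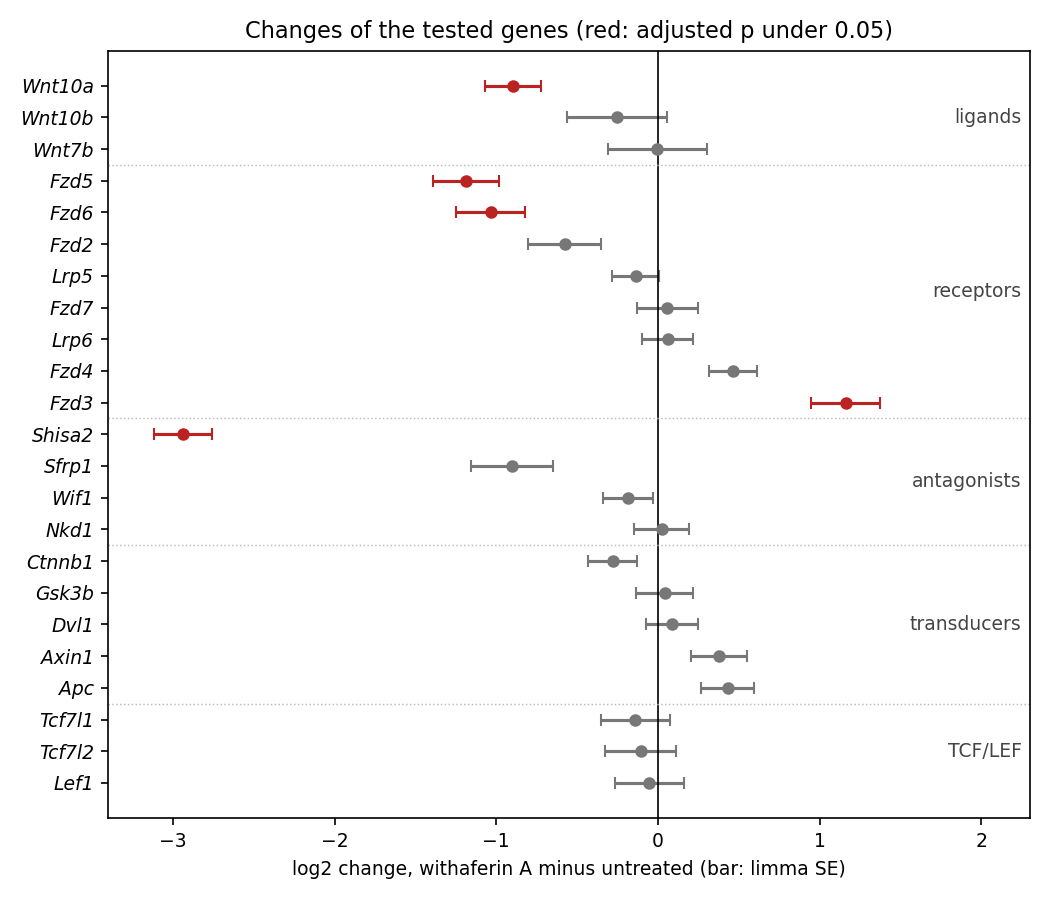
Log2 change of the 23 tested genes (horizontal axis, withaferin A minus untreated, n = 3 arrays each, bars limma SE), grouped by role. Red points passed an adjusted p of 0.05. Shisa2 lies at -2.94, Fzd3 at 1.16 and the 5 transducers between -0.28 and 0.43.

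Among the ligands, Wnt10a, which signals through beta-catenin in tooth and hair follicle development, fell. Untreated arrays 1 to 3 had a log2 intensity of 7.44, 7.47 and 7.03, and withaferin A arrays 1 to 3 had 6.40, 6.29 and 6.57. The highest treated array lay below the lowest untreated array. The change was -0.89 (SE 0.17, 1.86-fold lower, limma adjusted p = 0.0191). Without background correction it was -0.61 (1.52-fold lower). Leaving out untreated array 1 or 2 or treated array 1 or 2 ended the call, as did dropping the filter (adjusted p up to 0.0879).

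Wnt7b, a ligand known from lung and kidney development, had 10.22, 9.83 and 8.91 on untreated and 9.83, 9.78 and 9.33 on withaferin A arrays. The untreated arrays spanned the treated ones, and the change of -0.0052 (SE 0.31, adjusted p = 0.994) was far within their SD of 0.67. Its other tested probe changed by -0.29 (adjusted p = 0.421). Wnt10b, a ligand that favours bone over fat formation, had 5.91, 5.81 and 6.44 on untreated and 5.83, 5.13 and 6.44 on withaferin A arrays. Its groups overlapped (change -0.25, SE 0.31, adjusted p = 0.660), and withaferin A array 2 was the lowest of the 6. Wnt5b, chosen here after its values were seen because it was detected on 2 untreated and 0 withaferin A arrays, was not tested. It had 5.17, 4.88 and 4.98 on untreated and 4.60, 4.71 and 4.82 on withaferin A arrays, and the bound on its difference is at least 1.005-fold lower, close to none.

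The Frizzled receptors that passed moved in both directions. Fzd5, a beta-catenin branch receptor known from eye and intestine, fell. It had 9.02, 9.57 and 8.83 on untreated and 7.96, 8.04 and 7.86 on withaferin A arrays. All treated arrays were below all untreated ones, and the treated arrays lay close together (SD 0.090 against 0.39). The change was -1.19 (SE 0.20, 2.28-fold lower, limma adjusted p = 0.0108). The adjusted p was 0.0512 when withaferin A array 1 was left out and 0.0609 with no filter, which ended the call. A dim second tested probe of Fzd5, detected on 3 untreated and 1 withaferin A arrays, did not pass (change -0.25, adjusted p = 0.376), and 2 further probes were detected on 0 arrays. With the mean over its tested probes in place of the brightest, Fzd5 passed with a smaller change (-0.72, limma adjusted p = 0.0309).

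Fzd6, a receptor of the planar cell polarity branch known for orienting hair follicles, fell by both of its probes. The brighter had 9.48, 9.79 and 10.15 on untreated and 8.84, 9.01 and 8.48 on withaferin A arrays. The second had 8.94, 9.15 and 9.28 on untreated and 8.21, 8.27 and 8.09 on withaferin A arrays. At each probe the groups were apart, and withaferin A array 3 was the lowest of the 6. The changes were -1.03 (SE 0.21, 2.05-fold lower, limma adjusted p = 0.0246) and -0.94 (SE 0.16, 1.92-fold lower, limma adjusted p = 0.00977). Leaving out untreated array 2 or 3 or treated array 1, or dropping the filter, ended the call at the brighter probe (adjusted p up to 0.0989).

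Fzd3, a receptor known from axon guidance and neural tube closure, rose from a low level. It had 5.84, 5.36 and 5.51 on untreated and 6.72, 7.09 and 6.38 on withaferin A arrays, or raw intensities of 121, 101.7 and 102.8 and of 146.3, 181.5 and 131.1. Every treated array was above every untreated array. The change was 1.16 (SE 0.21, 2.24-fold higher, limma adjusted p = 0.0150), or 0.65 (1.57-fold) where no background was subtracted and 0.64 (1.56-fold) in the deposited value table. Its other tested probes changed by 0.79 and 0.39 and did not pass (adjusted p = 0.0722 and 0.259). With the mean over its 3 probes in place of the brightest, Fzd3 did not pass (change 0.78, adjusted p = 0.0510). Leaving out untreated array 3 or treated array 1, or dropping the filter, also ended its call (adjusted p up to 0.0784).

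Of the other receptors, Fzd4, the receptor for Norrin in retinal vessels, was at the edge of detection. It had 4.80, 4.75 and 4.88 on untreated and 5.27, 5.41 and 5.14 on withaferin A arrays, detected on 1 and 3 of 3. With 2 of 3 untreated values not above background, its groups were apart, but the change of 0.46 (SE 0.15) did not pass (limma adjusted p = 0.0969). It passed with median scaling (adjusted p = 0.0399) and with array weights (adjusted p = 0.0205). Array weights, with a weight of 10.2 on withaferin A array 1, called 3972 of all tested probes. The deposited value table called 4568, against 1125 in the fit used, which bears on every pass in these 2 settings. Fzd2 had 6.97, 7.43 and 7.45 on untreated and 6.77, 6.28 and 7.06 on withaferin A arrays, with overlap and a change of -0.58 (SE 0.23, adjusted p = 0.158). Fzd2 passed without normalization between arrays (adjusted p = 0.0246) and in the deposited value table (adjusted p = 0.0443), whose values are centred within same-numbered pairs and were tested as 3 pair differences. In Fzd7, a receptor known from intestinal stem cells, the levels differed by 0.06 (SE 0.19, adjusted p = 0.887), and by -0.19 when arrays were not normalized. The coreceptor genes Lrp5 and Lrp6 had changes of -0.14 (SE 0.15) and 0.06 (SE 0.16), with adjusted p = 0.607 and 0.855, and that of Lrp6 was -0.22 without normalization between arrays.

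Shisa2 was the member with the largest change among the 23 genes. Proteins of its family, first described in Xenopus, hold immature Frizzled and FGF receptors in the endoplasmic reticulum and so attenuate both signals in the receiving cell. Untreated arrays 1 to 3 had raw intensities of 375.6, 453.9 and 485.9, and withaferin A arrays 1 to 3 had 94.8, 96.4 and 98.9. On the log2 scale it had 8.13, 8.45 and 8.73 on untreated and 5.48, 5.48 and 5.53 on withaferin A arrays. All treated arrays lay near the detection limit and within an SD of 0.029, far below the untreated arrays (SD 0.30). Shisa2 was still detected on 3 of 3 treated arrays. The change was -2.94 (SE 0.18, 7.66-fold lower, limma adjusted p = 2.81e-05). It passed in all 15 alternative settings, which include the 6 fits that each left out 1 array, with adjusted p up to 0.00334. Shisa4 and Shisa5, of the same family but outside the members, did not pass (changes -0.17 and 0.23, limma adjusted p = 0.633 and 0.352).

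The size of the Shisa2 fall depended on how background was treated. It was 3.99-fold when no background was subtracted and 3.97-fold in the values the authors deposited. Its second probe, too dim for the test, had 4.97, 4.94 and 5.49 on untreated and 4.30, 4.34 and 4.37 on withaferin A arrays, detected on 2 of 3 and 0 of 3. The groups were apart there too. Since the treated level lies below the detection limit, the difference at that probe is given as a bound, at least 1.09-fold lower, and with no filter its change of -0.80 did not pass (adjusted p = 0.0913).

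**Figure D3:**
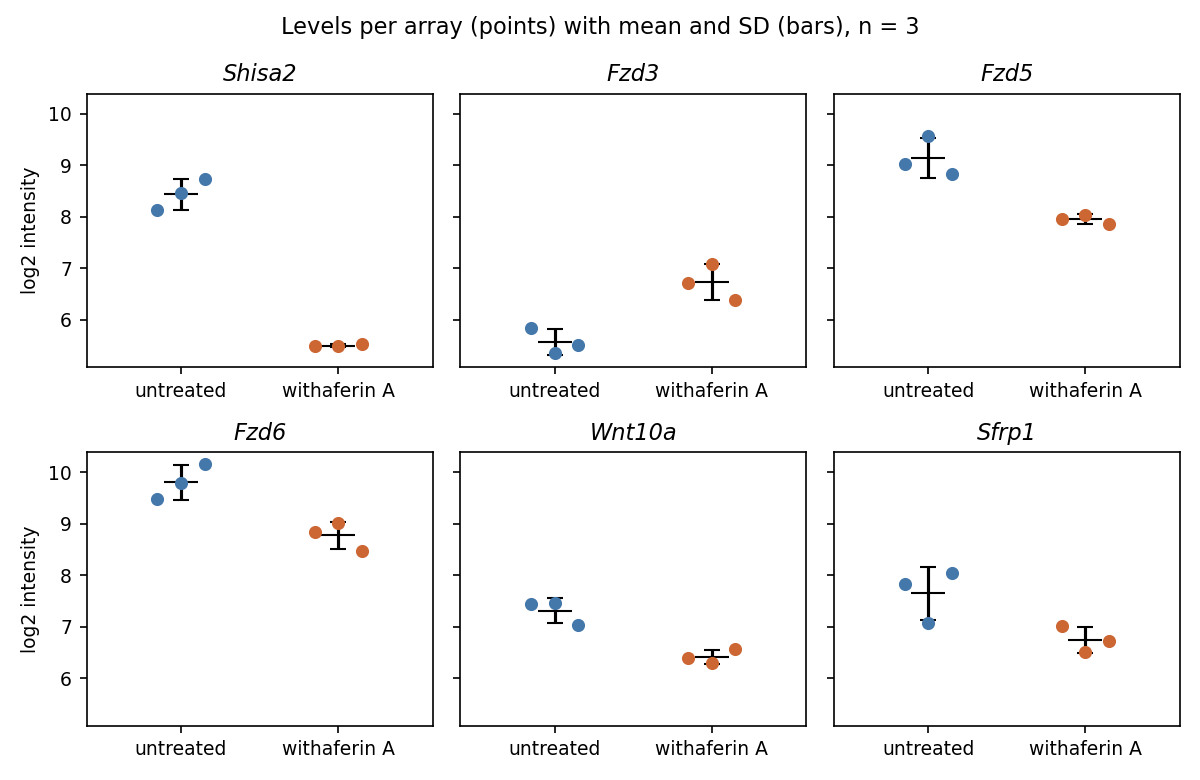
Log2 intensity (vertical axis) on each array (points) for 6 genes, with the mean and SD of each group of 3 in black. In Shisa2, Fzd5, Fzd6, Wnt10a and Sfrp1 all withaferin A arrays lie below all untreated arrays, and in Fzd3 above.

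Sfrp1, a secreted decoy that binds Wnt proteins through a Frizzled-like domain, had 7.82, 7.08 and 8.05 on untreated and 7.01, 6.51 and 6.71 on withaferin A arrays. The groups were apart, with untreated array 2 only just above withaferin A array 1. The change of -0.90 (SE 0.25, 1.87-fold lower) did not pass (limma adjusted p = 0.0674). At its other probe, which had 7.70, 6.79 and 7.32 on untreated and 6.92, 6.49 and 6.89 on withaferin A arrays, the groups overlapped (change -0.50, adjusted p = 0.230). Sfrp1 passed without untreated array 2 (change -1.19, adjusted p = 0.0190), without normalization between arrays (adjusted p = 0.00839), in the deposited value table (adjusted p = 0.00715) and with array weights (adjusted p = 0.0278).

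The other measured antagonists were dim. Wif1, a secreted Wnt-binding inhibitor, had 5.08, 5.02 and 5.21 on untreated and 4.76, 4.90 and 5.10 on withaferin A arrays, detected on 3 and 1 of 3 (change -0.18, SE 0.16, limma adjusted p = 0.505). Nkd1, which binds Dishevelled and is itself a feedback target in mouse, had 4.72, 4.94 and 4.92 on untreated and 5.16, 4.77 and 4.73 on withaferin A arrays (change 0.02, SE 0.17, adjusted p = 0.953). Both genes overlapped between groups. The change of Nkd1 was -0.07 without normalization between arrays.

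Promoters are shown for the called genes that RefSeq's table covers, Shisa2 and Fzd5, and for a Wnt5b start as the contrast that holds a TCF/LEF core. Each run is the 250 bases before an annotated start on build GRCm38.p6, 5′ to 3′ on the gene's strand. Shisa2 lies at chr14:59625031-59625280 on the plus strand, Fzd5 at chr1:64737751-64738000 on the minus strand and the Wnt5b start at chr6:119449387-119449636 on the minus strand. Capitals mark a TCF/LEF core.
Shisa2: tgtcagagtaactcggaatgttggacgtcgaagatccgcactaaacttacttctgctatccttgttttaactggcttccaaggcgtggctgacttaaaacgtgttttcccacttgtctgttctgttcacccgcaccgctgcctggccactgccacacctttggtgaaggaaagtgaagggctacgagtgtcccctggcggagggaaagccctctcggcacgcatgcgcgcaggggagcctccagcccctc
Fzd5: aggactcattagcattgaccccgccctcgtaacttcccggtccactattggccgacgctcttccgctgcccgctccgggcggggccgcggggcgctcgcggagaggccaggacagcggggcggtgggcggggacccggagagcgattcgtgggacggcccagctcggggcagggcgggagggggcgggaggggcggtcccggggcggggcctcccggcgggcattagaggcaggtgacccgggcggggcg
Wnt5b: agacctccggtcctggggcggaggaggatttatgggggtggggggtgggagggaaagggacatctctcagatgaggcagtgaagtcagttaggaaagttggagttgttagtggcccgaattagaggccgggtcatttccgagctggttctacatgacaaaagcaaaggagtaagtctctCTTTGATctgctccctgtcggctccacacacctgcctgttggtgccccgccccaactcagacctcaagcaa

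The TCF/LEF core was searched as CTTTGAT and as CTTTGAA on both strands, patterns that share their first 6 letters and cannot match at the same place, in windows of 300 bases that also hold the 50 bases after each start. It was found in 3 of 46 windows of 37 member genes (Wnt5b, Wnt11 and Dkk1) and in 8.65% of all 32851 windows. In Wnt5b the match begins 71 bases before the start shown, and the windows at its other annotated starts held no match. The Shisa2 and Fzd5 windows held no match, which says only that these letters are not in these windows.

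None of the cytoplasmic transducers passed. Ctnnb1, which encodes beta-catenin, had 12.44, 12.57 and 12.64 on untreated and 12.27, 12.14 and 12.40 on withaferin A arrays. Its groups were apart by a small margin, and the change was -0.28 (SE 0.15, limma adjusted p = 0.289). It passed in the deposited value table (adjusted p = 0.0410). The other 3 tested probes of Ctnnb1 had changes of -0.38, -0.14 and 0.07, with adjusted p from 0.210 to 0.873. Axin1, the scaffold of the destruction complex, had 9.96, 9.98 and 9.51 on untreated and 10.13, 10.18 and 10.28 on withaferin A arrays (change 0.38, SE 0.17, adjusted p = 0.214). All its treated arrays were above all untreated ones, as they were at its other probe (change 0.32, adjusted p = 0.193).

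Apc, the tumour suppressor of that complex, had 6.42, 6.58 and 6.50 on untreated and 6.87, 7.18 and 6.74 on withaferin A arrays. Its groups were apart as well, but the difference of 0.43 (SE 0.16) did not pass (limma adjusted p = 0.149), or 0.14 without normalization between arrays. It passed in the deposited value table (adjusted p = 0.0398) and with array weights (adjusted p = 0.0497). Gsk3b, the kinase that phosphorylates beta-catenin, had 9.67, 10.04 and 9.56 on untreated and 9.86, 9.63 and 9.91 on withaferin A arrays, with overlap (change 0.04, SE 0.18, adjusted p = 0.915). Dvl1, the Dishevelled gene detected on all 6 arrays, had 9.63, 10.02 and 9.84 on untreated and 9.89, 9.99 and 9.88 on withaferin A arrays. Its treated arrays lay within the untreated range (change 0.09, SE 0.16, adjusted p = 0.783). Without normalization between arrays these changes were -0.20 for Gsk3b and -0.15 for Dvl1.

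Axin2, the feedback scaffold induced by beta-catenin, gave no signal above background. Its 1 probe had 4.43, 4.48 and 4.83 on untreated and 4.54, 4.60 and 4.38 on withaferin A arrays, detected on 0 of 6. Raw intensities were 70.7, 72.7 and 81.7 and 72.1, 74.8 and 64.7, which is below the array's median except on untreated array 3. No fold is given for it. A fall in Axin2, or a rise that stays below detection, could not be seen with this probe, and no withaferin A array reached detection. Whether the probe can detect Axin2 was not tested.

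The nuclear factors did not pass either. Tcf7l1, mainly a repressor of target genes, had 8.14, 8.51 and 8.56 on untreated and 8.23, 7.91 and 8.65 on withaferin A arrays (change -0.14, SE 0.21, limma adjusted p = 0.730). Tcf7l2, the main TCF of the intestine, had 7.93, 7.86 and 8.61 on untreated and 7.90, 7.93 and 8.25 on withaferin A arrays (change -0.11, SE 0.22, adjusted p = 0.811). Lef1 was dim, with 4.75, 5.38 and 5.17 and with 4.89, 5.39 and 4.86 (change -0.05, SE 0.21, adjusted p = 0.912). In all 3 genes the groups overlapped, and the change of Lef1 was 0.10 with median scaling.

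**Figure D4:**
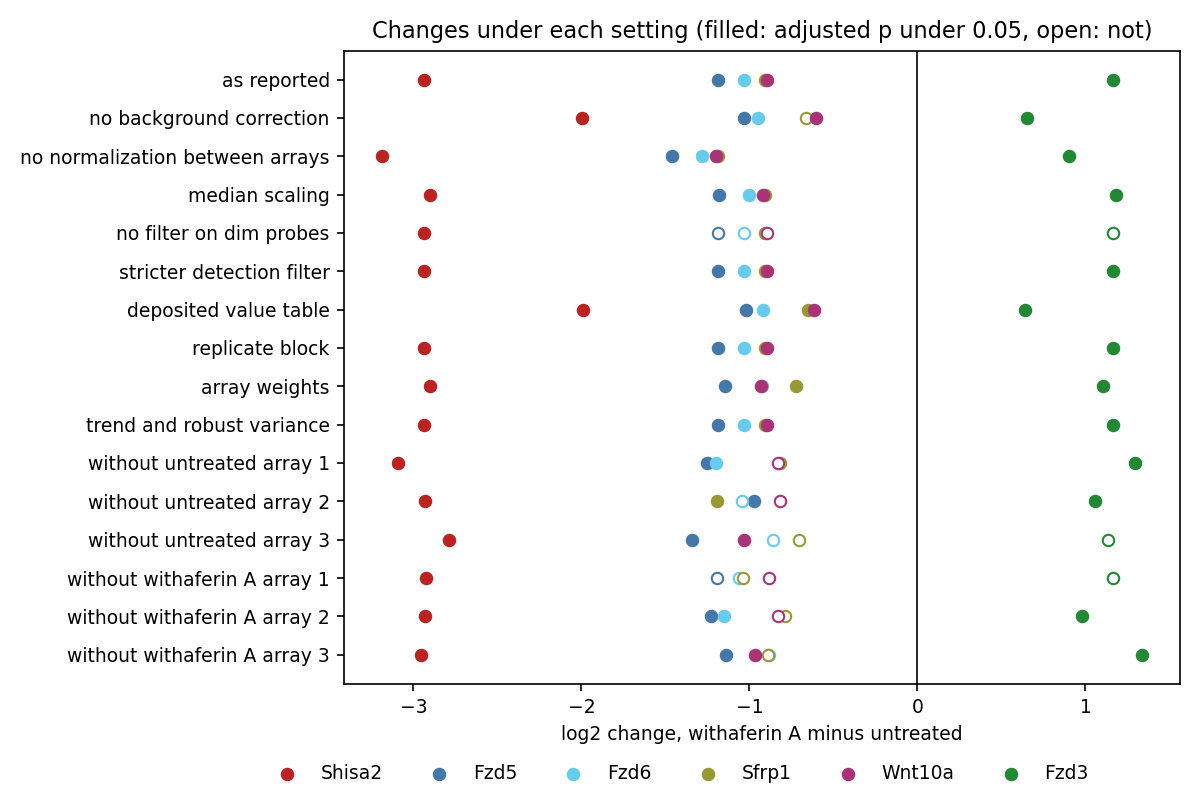
Log2 change (horizontal axis, withaferin A minus untreated) of 6 genes under the setting used and 15 alternatives (vertical axis). Filled points passed an adjusted p of 0.05 and open points did not. Shisa2 is filled in every setting, from -3.18 without normalization between arrays to -1.99 in the deposited value table.

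Other genes of the pathway were taken from a list of 57, of which 56 had a probe and 35 were tested. Of these, 1 rose, 0 fell and 34 did not pass, and 8 had an unadjusted p under 0.05, beside 6.83% of all genes called and 26.0% at that unadjusted p. Their median change was -0.13. Notum, a secreted enzyme that removes the lipid from Wnt proteins and so inactivates them, rose 1.73-fold. It had 7.96, 7.25 and 7.53 on untreated and 8.46, 8.27 and 8.38 on withaferin A arrays, with all treated arrays above all untreated ones (change 0.79, SE 0.20, limma adjusted p = 0.0478). At its other tested probe the change of 0.57 did not pass (adjusted p = 0.213). The Notum call held when untreated array 1 was left out and ended in each of the other 5 fits that left out an array. It also ended without background correction, without normalization between arrays, under median scaling and when dim probes were kept (adjusted p up to 0.167).

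The other genes of that list with the smallest p did not pass. Tle2, a Groucho-type corepressor that binds TCF factors, had a change of -0.90 (SE 0.25, limma adjusted p = 0.0671), and Vangl2, a core planar polarity gene, had 0.58 (SE 0.16, adjusted p = 0.0672). Rspo3, an R-spondin that amplifies Wnt signalling by way of LGR receptors, had 5.23, 4.99 and 5.53 on untreated and 4.67, 4.74 and 4.58 on withaferin A arrays. It was detected on 3 of 3 and 0 of 3, so the difference is a bound, at least 1.19-fold lower, which was not tested. The fit used the measured values, with treated ones not above background, and did not pass (change -0.585, limma adjusted p = 0.0809). Rspo3 met the filter through its untreated arrays alone. Its further p-values below come from fits of that kind, so those passes rest on treated values at background and add nothing to the bound. Tle2 and Rspo3 passed without normalization between arrays (adjusted p = 0.0117 and 0.0285), and Tle2, Vangl2 and Rspo3 with array weights (adjusted p = 0.0200, 0.0154 and 0.0146). In the deposited value table Tle2 and Vangl2 passed (adjusted p = 0.0275 and 0.0106), and Tle2 also without untreated array 1 (adjusted p = 0.0494). Of the secretion genes, Wls, which carries Wnt proteins to the surface, had a change of -0.37 (adjusted p = 0.269) and Porcn, which adds their lipid, -0.31 (adjusted p = 0.551).

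From a list of 25 textbook Wnt target genes, 23 had a probe and 14 were tested. Of these 3 rose (Cdkn1a, Ppard and Notum), 2 fell (Tnfrsf19 and Ccn5) and 9 did not pass, beside a background of 2.81% of all genes higher and 4.02% lower. At an unadjusted p under 0.05 there were 9 of the 14, beside 26.0% of all genes. The median change of the 14 was -0.08. Like the members, this list and the one before were chosen with earlier results of these data known, so these shares are description only. Of the 14 target genes, 3 were called without untreated array 2, untreated array 3 or withaferin A array 1, 2 without withaferin A array 2, and 0 with no filter. Over all probes those settings called 720, 494, 382, 505 and 579 in that order, against 1125 with all arrays and the filter. Tnfrsf19, the receptor TROY found on stem cells, had 6.25, 7.48 and 7.29 on untreated and 4.88, 4.85 and 5.47 on withaferin A arrays. It was detected on 3 of 3 untreated and 1 of 3 treated arrays, so it met the filter mainly through the group where it is high. Since 2 of the 3 treated values are not above background, the size of the fall is uncertain. All treated values lay below the untreated ones (change -1.94, SE 0.31, 3.85-fold lower, limma adjusted p = 0.00839). The change was -1.08 where no background was subtracted and -1.06 in the deposited value table. Ccn5, a matricellular protein gene also called Wisp2, had 7.20, 8.08 and 6.85 on untreated and 6.17, 5.24 and 5.63 on withaferin A arrays, without overlap (change -1.70, SE 0.33, 3.24-fold lower, adjusted p = 0.0184). That difference was 2.08-fold where no background was subtracted and 2.04-fold in the deposited value table. Leaving out withaferin A array 2 or dropping the filter ended the Ccn5 call (adjusted p up to 0.118). Dropping the filter also ended the calls of Tnfrsf19 (adjusted p = 0.0825) and Cdkn1a (adjusted p = 0.0676).

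Cdkn1a encodes the cell cycle inhibitor p21, which is repressed by way of MYC in the intestine and is also a p53 target. It had 8.02, 7.41 and 7.18 on untreated and 9.78, 9.61 and 8.84 on withaferin A arrays (change 1.87, SE 0.28, 3.66-fold higher, limma adjusted p = 0.00611). All treated arrays lay above the untreated ones, and its other 2 tested probes rose by 1.47 and 1.70. Ppard, a nuclear receptor for fatty acids, rose 1.62-fold (change 0.70, adjusted p = 0.0396). The Ppard call was kept in 1 of the 6 fits that left out an array, the fit without withaferin A array 3, and it ended without normalization between arrays (adjusted p = 0.116) and with no filter (adjusted p = 0.0686). Ccnd1, the G1 cyclin, had a change of -0.78 (adjusted p = 0.101), Plaur, the urokinase receptor, 1.18 (adjusted p = 0.0913) and Ccn4, also called Wisp1, -0.64 (adjusted p = 0.154). Ccnd1 and Plaur passed in the deposited value table (adjusted p = 0.00658 and 0.0240) and with array weights (adjusted p = 0.0252 and 0.0188), and Plaur also without untreated array 1 (adjusted p = 0.0329). Ccn4 passed without normalization between arrays and in the deposited value table. Myc, a target of beta-catenin in colon, had a change of 0.13 (SE 0.18, adjusted p = 0.704).

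**Figure D5:**
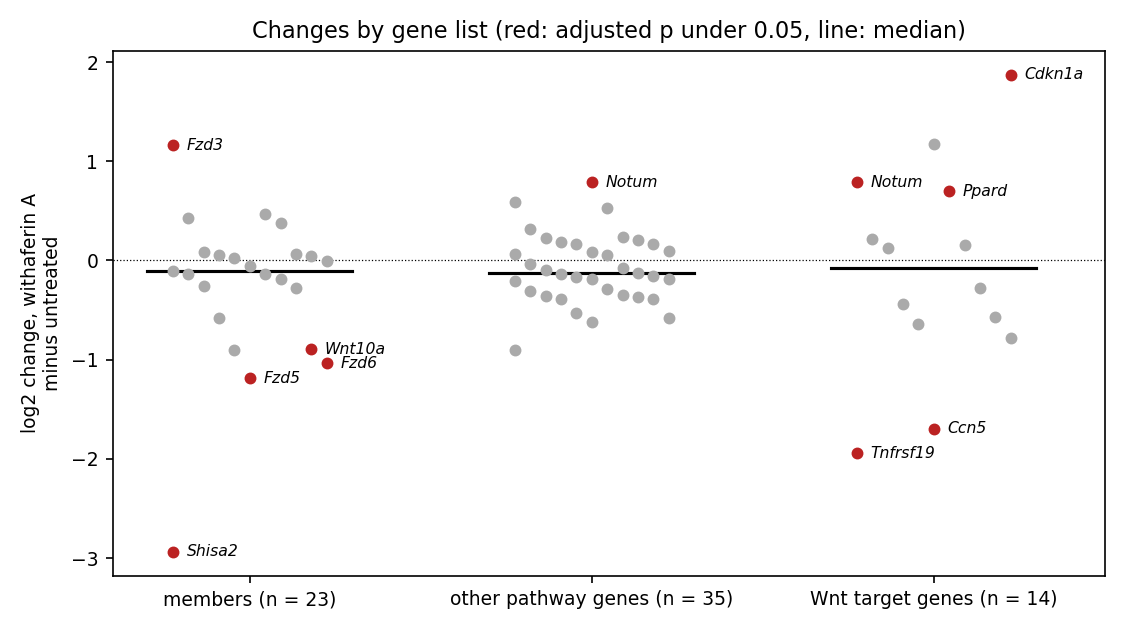
Log2 change (vertical axis, withaferin A minus untreated) of the 23 tested members, 35 other pathway genes and 14 Wnt target genes, each point a gene and each line a median. Red, named points passed an adjusted p of 0.05. Medians lie at -0.11, -0.13 and -0.08, and Notum is in both of the latter lists.

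Within groups, the tested pathway probes varied about as much as probes did in general. The median SD over 3 arrays was 0.25 in untreated and 0.21 in withaferin A arrays for the 39 probes, beside 0.21 and 0.19 over all tested probes. The widest were Wnt7b among untreated arrays (SD 0.67) and Wnt10b among withaferin A arrays (SD 0.65).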

How the data were processed

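The authors deposited a table of raw probe intensity per array, and beside each intensity a fraction from 0 to 1 headed as a detection p. That fraction increases with intensity, so 1 minus it was taken as the p. The authors also deposited a value table of log2 intensities centred on each same-numbered pair of arrays, found from its values, since the columns of each pair are mirror images (largest gap 1e-06). Its column medians were -0.000566, -0.00265 and -0.00108 for untreated arrays 1 to 3, with the opposite sign for withaferin A arrays. Its differences correlated with those used here at 0.961 to 0.966, and slopes of the raw log2 ratio on it of 1.01 to 1.11 set scale and direction, while its normalization stays unknown. Labelling followed Illumina's standard protocol, per the labels. The scanner software was not stated there.

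Background was corrected by normexp, with the negative controls' mean and SD inferred from detection p, and after an offset of 16 the arrays were quantile-normalized (neqc, limma 3.58.1, R 4.3.3). Probes detected on at least 3 of 6 arrays were fitted with lmFit and eBayes (two-sided, threshold 0.05). Symbols came from GEO's platform annotation, which gave 1 symbol for 34885 probes, several for 18 and none for 10378. By gene ID, 34807 were found in a GRCm38.p6 gene table, which changed 0 symbols.

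Per-array values are given for called members, for Shisa2 and Axin2, and in each role for the 4 tested genes with the smallest p and the brightest, and further members are named beside them. From the other lists, called genes and the 3 with the smallest p are given, and a few more for their role in the pathway. In simulated arrays with the 19077 probes of this comparison, the test recovered 62 of 100 simulated 2-fold changes and 99 of 100 4-fold changes, with 7 false calls among 18877. Alternatives changed the background correction, normalization, filter, gene summary and variance model, used the value table (tested as 3 pair differences, since it holds only those), a replicate block or array weights, or left out 1 array in turn. The members and lists were chosen with earlier results of these data known. Arrays number 3 a group, which limits the precision.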

Additional observations from a re-analysis of the deposited data

How the results depend on the processing

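The number of arrays, and for Fzd3, Fzd4, Wif1, Lef1, Nkd1 and the treated level of Shisa2 the closeness to background, limit these results. Of 1125 probes called, the alternatives gave 2959 without normalization between arrays, 579 with no filter, 4568 in the value table, 1753 with the replicate block, 3972 with array weights and 382 to 1550 without 1 array in turn. Of the 104 pathway probes 6 were called, and the same settings gave 10 without normalization between arrays, 3 with no filter, 13 in the value table and 12 with array weights, with 1 to 7 without 1 array. Of the pathway genes 5 were called, against 3 when every tested probe had to pass, 1 with no filter, 9 in the value table, 8 with array weights and 1 to 5 without 1 array. The array weights gave withaferin A array 1 a weight of 10.2, against 0.473 to 0.967 for the others, and the estimate had not converged. The median change of the pathway probes was -0.08, or -0.299 without normalization between arrays (-0.155 to -0.0116 without 1 array). Of the other pathway genes 1 was called, against 0 to 8 in the alternatives (6 without normalization between arrays, 8 in the value table and 8 with array weights), and of the target genes 5, against 0 to 10 (10 in the value table, 9 with array weights and 0 with no filter). Of the 4 genes near background, Lef1, Nkd1, Fzd4 and Wif1, the stricter detection filter left no tested probe. With detection p under 0.01, 27 rather than 31 pathway probes were detected on all arrays.

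Signs turned only for uncalled genes. Without normalization between arrays the changes were -0.145 for Dvl1, -0.222 for Lrp6, -0.186 for Fzd7, -0.197 for Gsk3b and -0.0659 for Nkd1, and with median scaling 0.0998 for Lef1 and 0.0133 for Wnt7b, the latter 0.0665 with array weights. Without 1 array in turn the changes ranged from -0.0158 to 0.184 for Dvl1, -0.0282 to 0.13 for Lrp6, -0.0537 to 0.252 for Fzd7, -0.0563 to 0.182 for Gsk3b, -0.113 to 0.0996 for Nkd1, -0.229 to 0.0878 for Lef1, -0.377 to 0.28 for Wnt7b, -0.571 to 0.0794 for Wnt10b, -0.334 to 0.0347 for Tcf7l1 and -0.242 to 0.131 for Tcf7l2. The cause was not tested.

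Arrays share replicate numbers 1 to 3. Deviations from the group means correlated at 0.267, -0.0386 and 0.318 in same-numbered pairs, so the numbers were not taken to pair the arrays, and not every array correlated best with its own number. The labels do not say whether a number stands for a passage, so a shared passage was not tested. With the replicate block 6 pathway genes and 7 pathway probes were called, and the gene added was Sfrp1 (change -0.905, adjusted p = 0.0223), while the target gene added was Ccnd1 (adjusted p = 0.0365). The value table's calls rest on the same pairs, and with the block on the values used here Ctnnb1, Apc and Fzd2, which it adds, did not pass (adjusted p = 0.297, 0.129 and 0.114). The median change of the pathway probes stayed at -0.08.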
